A study of Cicer arietinum with 4 samples.

Results

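Protective seed proteins of 3 kinds were followed here through 1 gene each, namely DHN, a dehydrin, CAGOLS2, a galactinol synthase, and FER3, a ferritin. They were taken by their identifiers from a table of 28783 genes, and all 3 were found. The table holds RNA sequencing of chickpea (*Cicer arietinum*, a grain legume) ovules of the cultivar ICC4958. Post-fertilization ovules came from half-opened flowers and pre-fertilization ovules from closed buds, with 2 libraries in each group. No treatment or mutation is named in the labels, so the groups differ in fertilization and in the stage of the flower together, and these cannot be told apart. The libraries are called post A, post B, pre A and pre B, and the letters pair nothing between the groups. Values are FPKM, which are counts of sequenced fragments divided by the length of the transcript and by the depth of the library, as the authors deposited them.

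Dehydrins are very hydrophilic proteins of the late embryogenesis abundant (LEA) class, which build up in maturing seeds and in tissues that lose water, where they protect membranes and other proteins. Galactinol synthase makes galactinol from UDP-galactose and myo-inositol, the first committed step towards raffinose and stachyose, the oligosaccharides for which legume seeds are known. Ferritins are plastid proteins that store iron in a hollow shell, and they keep iron from taking part in the formation of reactive oxygen species.

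All 3 genes had higher levels in both post-fertilization libraries than in either pre-fertilization library. The same held for 39.3% of the 17849 genes tested. CAGOLS2 rose 6.10-fold and FER3 1.99-fold on mean FPKM, and both passed the test, whereas DHN had the largest log2 difference and did not pass. Of all genes tested, 21.0% passed and were higher post-fertilization. The levels of the 3 genes were low. FER3 was the highest of them at 6.40 ± 1.26 FPKM post-fertilization and 3.22 ± 0.0832 FPKM pre-fertilization (SD, n = 2 each), while CAGOLS2 and DHN stayed under 1 FPKM in the pre-fertilization libraries. The test took genes with 1 FPKM in at least 2 libraries, which CAGOLS2 and DHN reached only post-fertilization.

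The depth of the libraries is unknown. As a rough guide, the lowest value above 0 was compared between libraries, as a median over classes of gene span. It was 0.993 times that of pre A in post A, 0.903 times in post B and 1.82 times in pre B. Near the spans of CAGOLS2 and FER3 the lowest value above 0 was instead smaller in pre B than in pre A. Near that of FER3 it was 1.31e-05 FPKM in pre B, so the lowest value need not stand for 1 fragment. A difference in depth was therefore not established. Genes listed at 0 numbered 6585 in post A and 6312 in post B, against 7219 in pre A and 7739 in pre B. Whether this bears on the levels of low genes was not tested. Genes typed as protein-coding in RefSeq held 27.1% and 16.9% of the summed FPKM in post A and post B, against 36.1% and 29.5% in pre A and pre B. Genes not found in RefSeq had no type and counted outside that share. The summed FPKM ran from 1.48e+06 in pre A to 3.57e+06 in post B. With median-of-ratios scaling between libraries the post minus pre difference in log2(FPKM + 1) was 1.67 for DHN, 1.36 for CAGOLS2 and 0.79 for FER3, and with quantile normalization it was 1.27, 1.01 and 0.64 in the same order, beside 1.68, 1.37 and 0.80 with the deposited values. None of the 22 ovule, egg cell, pollen or green tissue markers looked for matched a symbol in the table, so the labelled tissue was not checked against markers. In such bulk samples more cells of a type and more RNA per cell cannot be told apart.

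DHN spans 926 bp on chromosome 8, from 14698476 to 14699401, in the authors' coordinates, for which the sources used here name no build. Its level was 1.18 FPKM in post A and 4.44 FPKM in post B, against 0.159 FPKM in pre A and a listed value of 0 in pre B. Both post-fertilization libraries were higher and the groups did not overlap, but post B stood 3.75-fold above post A. The lower post-fertilization value was 7.44 times the higher pre-fertilization value. As group values these are 2.81 ± 2.30 FPKM post-fertilization and 0.0794 ± 0.112 FPKM pre-fertilization (SD, n = 2 each), so the SD of the post-fertilization pair was nearly as large as its mean.

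The pre-fertilization level of DHN lay close to the lowest values that the libraries could give. Among 1063 genes with a span within 10% of that of DHN, the lowest value above 0 was 0.0711 FPKM in pre A, of which the DHN value was 2.23 times. In pre B the lowest such value was 0.129 FPKM, and 49.7% of these genes were listed at 0 there. A transcript at the pre A level of DHN may therefore have gone undetected in pre B, and the listed 0 does not show that it was absent. In rank, DHN lay above 40.8% of all genes of the table in post A and above 51.2% in post B, against 31.5% in pre A.

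The difference of DHN did not pass the test over all genes. Log2(FPKM + 1) was higher by 1.68 (SE 0.48, 95% confidence interval 0.42 to 2.94) in post-fertilization ovules, with a limma adjusted p = 0.0525. Between post B and post A the log2(FPKM + 1) of DHN differed by 1.32, more than in 96.6% of the 17849 tested genes, for which the median difference was 0.20. The test was passed at a pseudocount of 0.1 (limma adjusted p = 0.0291), among genes spanning at least 300 bp (limma adjusted p = 0.0395) and among protein-coding genes only (limma adjusted p = 0.0360). It was not passed at a pseudocount of 5 (limma adjusted p = 0.098) or with quantile normalization (limma adjusted p = 0.101). The call thus depends on these choices.

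CAGOLS2 spans 1973 bp on chromosome 4, from 6325544 to 6327516. Its level was 2.35 FPKM in post A and 3.08 FPKM in post B, against 0.285 FPKM in pre A and 0.605 FPKM in pre B. Both post-fertilization libraries were higher, and the lower of them was 3.89 times the higher pre-fertilization library. In rank, CAGOLS2 lay above 46.2% of all genes of the table in post A and 47.4% in post B, against 34.5% in pre A and 38.4% in pre B. Its folds thus rest on low pre-fertilization values. Within the groups, log2(FPKM + 1) differed by 0.28 between post B and post A, more than in 62.7% of tested genes, and by 0.32 between pre B and pre A, more than in 84.5%. The means were 2.72 ± 0.512 FPKM post-fertilization and 0.445 ± 0.226 FPKM pre-fertilization (SD, n = 2 each). Log2(FPKM + 1) rose by 1.37 (SE 0.22, 95% confidence interval 0.78 to 1.95; limma adjusted p = 0.0142).

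FER3 spans 2979 bp on chromosome 3, from 20098502 to 20101480. It stood at 5.50 FPKM in post A and 7.29 FPKM in post B, against 3.28 FPKM in pre A and 3.16 FPKM in pre B. Both post-fertilization libraries were higher, by 1.68-fold even for the closest pair of libraries, and the pre-fertilization pair differed by only 1.04-fold. The rise in log2(FPKM + 1) was 0.80 (SE 0.18, 95% confidence interval 0.32 to 1.28; limma adjusted p = 0.0302). That call was lost without post B (limma adjusted p = 0.0562) and with no filter on low values (limma adjusted p = 0.0562).

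**Figure D1:**
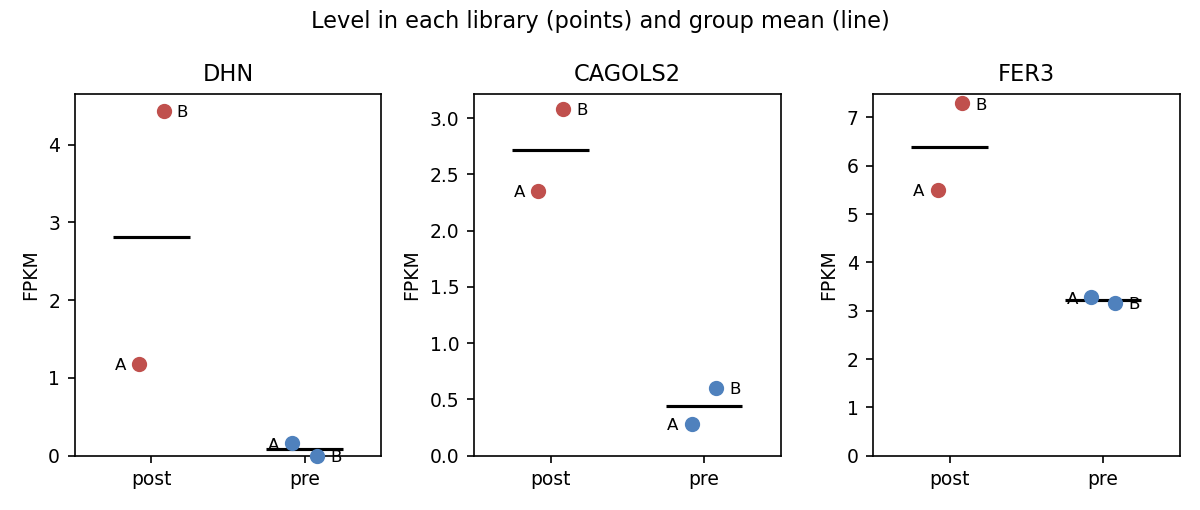
Level of DHN, CAGOLS2 and FER3 in FPKM (vertical axis, from 0) in post-fertilization and pre-fertilization ovules, with 1 point for each library, lettered A or B, and a line at the mean of the 2 libraries. In each panel both post-fertilization points lie above both pre-fertilization points, and for DHN the post-fertilization points lie far apart, at 1.18 and 4.44 FPKM.

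These results stand against a table in which many genes differed. In limma, 36.5% of the 17849 genes in the fit had an adjusted p under 0.05, with 21.0% higher and 15.5% lower in post-fertilization ovules. Both post-fertilization libraries were above both pre-fertilization libraries in 39.3% of the genes and below both in 36.4%. Higher levels in 3 genes, of which 2 passed, are thus not unusual in this table. The log2 fold change exceeded that of 93.1% of tested genes for DHN, 90.8% for CAGOLS2 and 82.7% for FER3. DHN and CAGOLS2 met the filter of 1 FPKM in 2 libraries only through the post-fertilization libraries. A gene under 1 FPKM in both pre-fertilization libraries can enter the test only if both post-fertilization values are higher. The 93.1% of DHN and the 90.8% of CAGOLS2 are therefore not read as support for a rise. Without a filter CAGOLS2 still passed (limma adjusted p = 0.0196) and DHN did not (limma adjusted p = 0.0752).

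The test compares 2 libraries with 2, and the labels do not say whether the libraries of a group came from separate plants, so p-values measure only the spread between these libraries. Without pre A neither CAGOLS2 (limma adjusted p = 0.106) nor FER3 (limma adjusted p = 0.157) passed, and without pre B neither did (limma adjusted p = 0.0833 for CAGOLS2 and 0.167 for FER3). In those fits the spread comes from the post-fertilization pair alone, and the lone library is assumed to vary like the others.

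**Figure D2:**
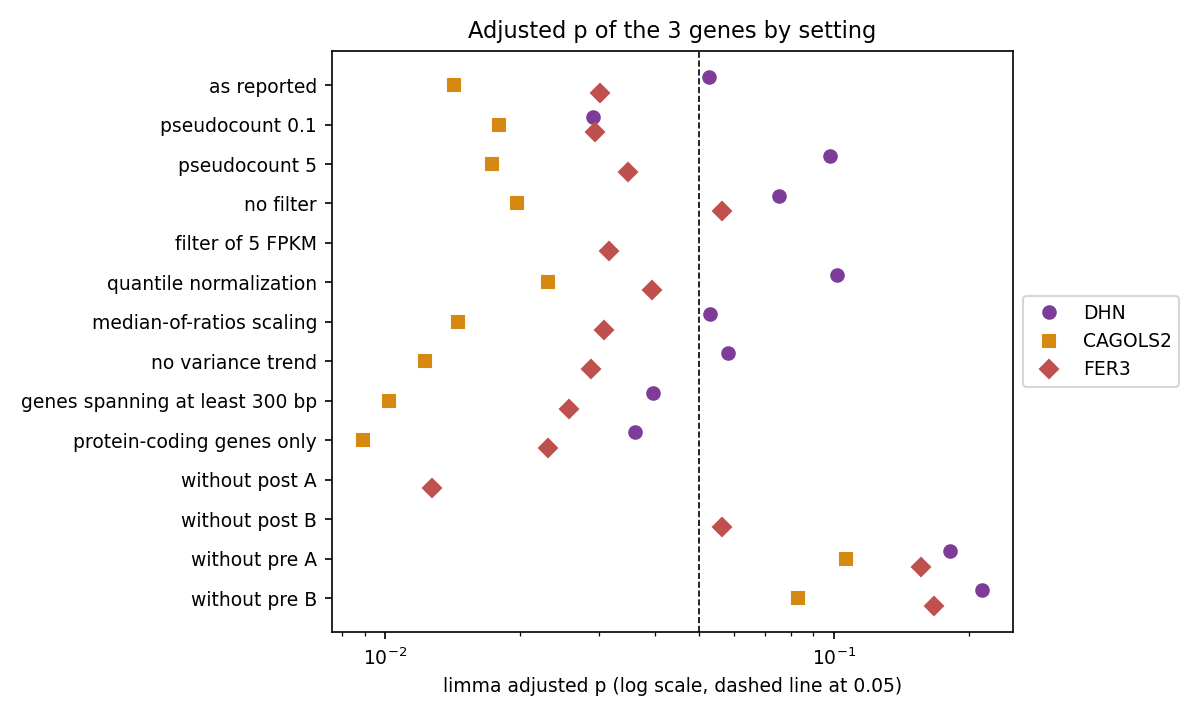
Limma adjusted p of DHN, CAGOLS2 and FER3 (horizontal axis, log scale, dashed line at 0.05) as reported and under 13 other settings, each with 1 choice changed (vertical axis), 1 symbol for each gene, with no symbol where the gene did not meet the filter. Where CAGOLS2 met the filter it lies left of the line except without pre A (0.106) and without pre B (0.0833), while DHN lies left of it under 3 settings.

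The order of the 3 levels was FER3 above CAGOLS2 above DHN in post A, pre A and pre B. In post B, DHN at 4.44 FPKM was above CAGOLS2 at 3.08 FPKM, so these neighbours in the order did not differ beyond the spread of the post-fertilization libraries. FER3 was above both in every library. FER3 exceeded DHN 4.66-fold in post A and 1.64-fold in post B, against 20.6-fold in pre A. It exceeded CAGOLS2 2.34-fold in post A and 2.37-fold in post B, against 11.5-fold in pre A and 5.22-fold in pre B. Such ratios within a library do not depend on the scaling between libraries, and FER3 exceeded CAGOLS2 by less in both post-fertilization libraries. On the log2(FPKM + 1) scale, CAGOLS2 less FER3 was higher by 0.57 in post-fertilization ovules (SE 0.31, 95% confidence interval -0.11 to 1.24), which did not pass when all genes were fitted relative to FER3 (limma adjusted p = 0.121). The level of FER3 enters every difference of that fit, in which 65.45% of genes passed. Adding 1 FPKM shrinks the change of a gene as low as CAGOLS2 was pre-fertilization. The 0.57 therefore understates the change in the FPKM ratios, and no other pseudocount was tried for it.

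FER3 was the least abundant of the 3 ferritin genes with a symbol, and the other two were at a far higher level. FER2 had 237 FPKM in post A and 295 FPKM in post B, against 225 FPKM in pre A and 222 FPKM in pre B. FER1 had 103 FPKM in post A and 96.7 FPKM in post B, against 80.7 FPKM in pre A and 73.4 FPKM in pre B. For both genes the groups did not overlap, but FER2 in post A lay only 1.05-fold above pre A. Neither passed, with a log2 difference of 0.37 for FER1 (SE 0.11, 95% confidence interval 0.09 to 0.65; limma adjusted p = 0.0543) and 0.24 for FER2 (SE 0.15, 95% confidence interval -0.15 to 0.64; limma adjusted p = 0.258). With quantile normalization the FER2 difference turned to -0.0080 and the FER1 difference was 0.11 (limma adjusted p = 0.492). FER1 passed among protein-coding genes only (limma adjusted p = 0.0412), among genes spanning at least 300 bp (limma adjusted p = 0.0430) and without post B (limma adjusted p = 0.0456). The difference of FER2 was 0.40 and passed without post A (limma adjusted p = 0.0437), and was 0.086 and did not pass without post B (limma adjusted p = 0.595).

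The summed FPKM of the 3 ferritins was 372 ± 38.2 post-fertilization and 304 ± 7.57 pre-fertilization (SD, n = 2 each). FER3 supplied 1.59% of that sum in post A and 1.82% in post B, against 1.06% in pre A and again 1.06% in pre B, so the share was higher in both post-fertilization libraries and small in all 4. On the log2(FPKM + 1) scale, FER3 less FER2 came to -5.20 in post A and to -5.16 in post B, against -5.73 in pre A and -5.74 in pre B, so the groups lay farther apart than the libraries within each. That difference of 0.56 (SE 0.23, 95% confidence interval 0.04 to 1.08; unadjusted p = 0.0384) did not pass in limma once adjusted over all genes fitted relative to FER2 (limma adjusted p = 0.0960). FER3 less FER1 was higher by 0.43 in post-fertilization ovules (SE 0.21, 95% confidence interval -0.11 to 0.97) and did not pass in the fit relative to FER1 (limma adjusted p = 0.143). Of all genes fitted, 30.08% passed relative to FER2 and 48.74% relative to FER1.

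CAGOLS1, the other galactinol synthase with a symbol, was not tested because it stayed under 1 FPKM in every library. Its level was 0.127 FPKM in post A and 0.965 FPKM in post B, against 0.129 FPKM in pre A and 0.234 FPKM in pre B. Only post B was high, and post A lay at the level of pre A, so the groups overlapped. CAGOLS2 made up 94.9% and 76.1% of the FPKM of both genes in post A and post B, against 68.9% and 72.1% in pre A and pre B.

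**Figure D3:**
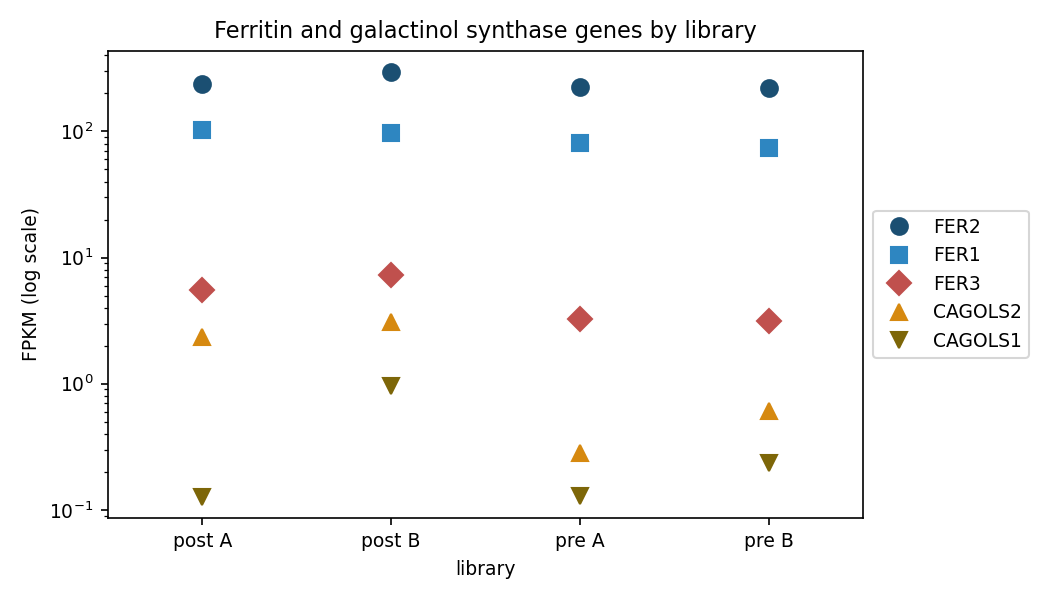
FPKM (vertical axis, log scale) of the 3 ferritin and 2 galactinol synthase genes with a symbol in each library (horizontal axis), 1 symbol for each gene. FER2 and FER1 lie above 73 FPKM in all 4 libraries, FER3 between 3.16 and 7.29 FPKM, and CAGOLS1 is high only in post B, at 0.965 FPKM.

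Besides DHN, 2 further LEA genes carry a name in the tables, and neither met the filter. CAPLEA-1 was at 0.180 FPKM in post A and 0.735 FPKM in post B, against 0.0906 FPKM in pre A and a listed 0 in pre B. LOC101511433, with the synonym CapLEA-2, was listed at 0 in post A and had 2.50 FPKM in post B, and it was listed at 0 in pre A and in pre B. All 3 LEA genes thus had their highest level in post B. This was not particular to them, since CAGOLS1, CAGOLS2, FER2 and FER3 were also highest there, though FER1 was not. DHN made up 86.8% of their summed FPKM in post A and 57.8% in post B, against 63.7% in pre A.

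No deposited gene interval overlaps any of the 3 genes, so fragments of an overlapping gene are not part of their values under these coordinates. The interval nearest to DHN, LOC101504022 at 104 bp, had 0.122 FPKM in post B and was listed at 0 in post A, pre A and pre B. Next to CAGOLS2 at 672 bp, LOC101502544 had 6.75 FPKM in post A and 5.40 FPKM in post B, against 9.06 FPKM in pre A and 11.0 FPKM in pre B, so its levels ran opposite to those of CAGOLS2. LOC101503473, 822 bp from FER3, had 28.3 FPKM in post A and 28.8 FPKM in post B, against 25.3 FPKM in pre A and 21.7 FPKM in pre B.

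A further list held 10 genes that serve to protect cells from salt, metals, oxidants or drying. Of the 9 that were tested 3 rose, 1 fell and 5 did not pass, beside 21.0% higher and 15.5% lower among all tested genes. Their median log2 fold change was 0.26, beside 0.02 for all tested genes. MT-1, a metallothionein (a small metal-binding protein), had 503 FPKM in post A and 1060.5 FPKM in post B, against 192 FPKM in pre A and 221 FPKM in pre B. Both post-fertilization values were high, as for DHN with post B the higher, and log2(FPKM + 1) rose by 1.82 (SE 0.38; limma adjusted p = 0.0256). MT-2, the second metallothionein, had 67.6 FPKM in post A and 62.8 FPKM in post B, against 54.0 FPKM in pre A and 54.4 FPKM in pre B, a difference that missed the threshold (limma adjusted p = 0.0972).

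Among genes that act on oxidants, LOC101490947, with the synonym phgpx (used for glutathione peroxidases that repair lipid peroxides), rose to 86.6 ± 20.2 FPKM post-fertilization, against 45.6 ± 1.22 FPKM pre-fertilization (SD, n = 2 each; limma adjusted p = 0.0241). GRX, a glutaredoxin, which reduces disulfide bonds with glutathione, rose to 249 ± 8.13 FPKM, against 163 ± 5.03 FPKM pre-fertilization (SD, n = 2 each; limma adjusted p = 0.0175). GRX was not called after quantile normalization (limma adjusted p = 0.0677). GRX3, another glutaredoxin, had 53.2 FPKM in post A and 48.9 FPKM in post B, against 47.0 FPKM in pre A and 40.5 FPKM in pre B, and missed the threshold (limma adjusted p = 0.211). LOC105851841, with the synonym sod (superoxide dismutase, which removes superoxide), was at 407 ± 116 FPKM post-fertilization and 293 ± 9.50 FPKM pre-fertilization (SD, n = 2 each), with post B the highest library at 489 FPKM, and missed the threshold (limma adjusted p = 0.194), with a log2 difference of 0.44. That difference was 0.74 and passed without post A (limma adjusted p = 0.0102), and was 0.15 and did not pass without post B (limma adjusted p = 0.403). The calls of MT-1 (limma adjusted p = 0.149 and 0.128), of LOC101490947 (limma adjusted p = 0.133 and 0.143) and of GRX (limma adjusted p = 0.165 and 0.141) were lost without pre A and without pre B, the values given in that order.

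P5CS, the enzyme that starts proline synthesis, had 22.6 FPKM in post A and 41.5 FPKM in post B, against 27.5 FPKM in pre A and 30.4 FPKM in pre B, so that the groups overlapped (limma adjusted p = 0.842), although without post A the difference passed (limma adjusted p = 0.0251). NHX1, an antiporter that loads sodium into the vacuole, was at 33.5 ± 5.06 FPKM post-fertilization and 43.5 ± 0.0227 FPKM pre-fertilization (SD, n = 2 each) and did not pass (limma adjusted p = 0.0914), but it was called lower without post B (limma adjusted p = 0.0187) and with quantile normalization (limma adjusted p = 0.0352). CAP2, a transcription factor gene of the AP2 family, fell to 16.6 ± 0.650 FPKM post-fertilization, against 22.8 ± 1.32 FPKM pre-fertilization (SD, n = 2 each; limma adjusted p = 0.0392), a call lost with no filter (limma adjusted p = 0.0512), with no variance trend (limma adjusted p = 0.0551) and without post A (limma adjusted p = 0.0553). CAP2 also missed the threshold when pre A was left out (limma adjusted p = 0.246) or pre B was (limma adjusted p = 0.170). HSFA9, a heat stress factor known from sunflower and Arabidopsis as an activator of seed protective genes, was not tested. It was at 0.525 FPKM in post A and 1.43 FPKM in post B, against 0.408 FPKM in pre A and 0.223 FPKM in pre B, with both post-fertilization values the higher ones.

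**Figure D4:**
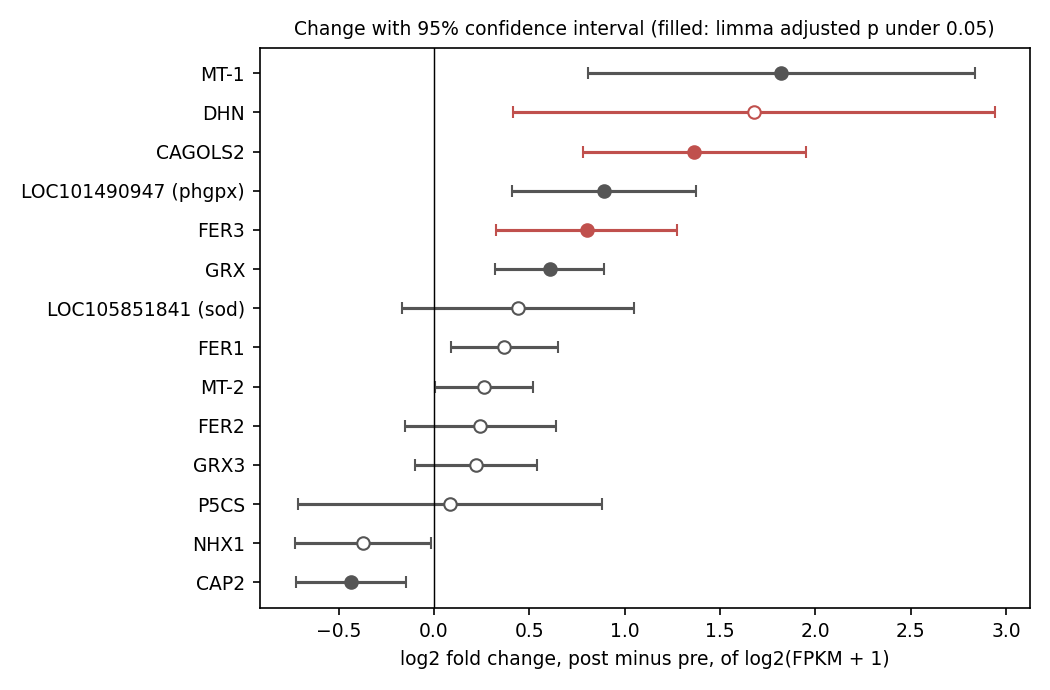
Log2 fold change of log2(FPKM + 1), post-fertilization minus pre-fertilization (horizontal axis), with its 95% confidence interval (bars) for DHN, CAGOLS2 and FER3 (red) and the 11 related genes that were tested (grey), where filled points have a limma adjusted p under 0.05. The interval of DHN, from 0.42 to 2.94, is the widest shown, and that of FER3, from 0.32 to 1.28, overlaps those of FER1 and FER2.

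The genes with a symbol whose levels over the 4 libraries were most like those of the 3 genes came to 8 different genes, of which 7 were UDP-glycosyltransferases, enzymes that add sugars to small molecules. Of the 192 genes with a symbol that met the filter, 30 belong to that family. Likeness was the Euclidean distance between log2(FPKM + 1) values over the 4 libraries, among 191 other genes with a symbol. Nearest to CAGOLS2 was UGT72AB1 at a distance of 0.40, with 2.41 FPKM in post A and 3.10 FPKM in post B, against 0.274 FPKM in pre A and 0.214 FPKM in pre B. UGT74K2 at 0.71 and UGT88E9 at 0.80 came next. UGT72AB1 was also nearest to DHN, at 0.82, followed by UGT71S3 at 0.95 and CAGOLS2 itself at 1.02. UGT71S3 shares with DHN the wide gap between post B, at 6.49 FPKM, and post A, at 1.34 FPKM. It was picked for likeness over these same values, so the shared gap is no separate result. FER3 was most like UGT92G3 at 0.42, UGT87H2 at 0.53 and UGT89F1 at 0.62. Among all genes that met the filter, 42 lay within a distance of 0.5 of DHN, 44 of CAGOLS2 and 106 of FER3, so none of the 3 profiles stood alone. Counting genes without a symbol, between 21 and 217 genes lay nearer to a profile than the genes named here.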

How the data were processed

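Per the labels' protocols, TRI reagent was used to extract total RNA of ovules, and sequencing was paired-end on the Illumina platform. FPKM values were deposited by the authors, 1 column for each library. Tools named in the submitters' processing notes, without their roles, are HISAT2, Cufflinks, Cuffdiff, fastp and FastQC. The sources used here give no genome build, annotation, strand, scaling between libraries or handling of shared fragments. The column names give the group of a library but not which sample it is. The depth of the libraries is unknown, and the lowest values above 0 in genes of like span were only a rough guide to it. Symbols were matched by gene number to a RefSeq table of assembly Cicar.CDCFrontier, which held 25491 of the genes. It supplied synonyms, the gene type (such as protein-coding) and chromosome numbers, while the coordinates are the authors' own.

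The test took genes that reached 1 FPKM in at least 2 libraries. Log2(FPKM + 1), which understates changes of low genes, was fitted by group in limma 3.58.1 (R 4.3.3) with a variance trend, 2 residual and 2.55 prior degrees of freedom, and its two-sided p-values received the Benjamini-Hochberg adjustment over all genes tested. Folds are ratios of mean FPKM. Differences between genes were tested by the same fit after the log2 value of 1 gene had been subtracted from all others in each library. The fit was also run on simulated data. Changes were planted there only in genes of a higher mean level than DHN and CAGOLS2, so that run does not cover such low genes. The 3 genes and the lists were chosen with earlier results of these data known. Lists came from symbols and synonyms, with LEA names read past their species prefix, and the list of 10 protective genes was added after the symbols had been seen. No gene carries a symbol searched for abscisic acid genes. In each list every gene is named. Named as most alike were, for each of the 3 genes, the 3 with the smallest distance. Planned comparisons by protein and promoter sequence were not made. Alternatives were the pseudocount, filter, scaling, variance trend, gene classes and leaving out each library. Figures were drawn with matplotlib 3.10.9.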

Additional observations from a re-analysis of the deposited data

How the results depend on the processing

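None of DHN, CAGOLS2 and FER3 changed direction under any alternative, and because their groups do not overlap, dropping a library could not have done so. DHN passed with a pseudocount of 0.1 (log2 difference 3.91), and among genes spanning at least 300 bp and protein-coding genes only (1.68 in both). In these 2 gene classes fewer genes were tested, and the SE was 0.458 and 0.453, against 0.477 as reported. FER3 lost its call with no filter (0.80), where more genes were tested and the SE was 0.197, against 0.180. Leaving out 1 library gave log2 differences of 1.57 to 1.78 for DHN, 1.21 to 1.53 for CAGOLS2 and 0.63 to 0.97 for FER3. DHN and CAGOLS2 did not meet the filter without post A or without post B, nor at 5 FPKM. With no filter, an alternative chosen after seeing the data, leaving out 1 library gave log2 differences of 1.02 to 2.34 for DHN. The range was 1.21 to 1.53 for CAGOLS2 and 0.63 to 0.97 for FER3. Calls in these fits were not read as results on these genes, because 1 group held a single library.

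Leaving out 1 library moved the genes called over the whole table to between 653 (without pre B) and 7404 (without post A), against 6522 with all. Of the related genes, the 3 included, 6 of 14 were called with all libraries, beside 36.5% of all tested genes, and when 1 was left out 0 of 14 (without pre A or pre B) to 7 of 12 (without post A). The 0 arose in limma without pre A, where 5 had an unadjusted p under 0.05, and without pre B, where 4 did. Far fewer genes of the whole table were called without pre A and without pre B, and the most were called without post A. The 0 of 14 and the 7 of 12 are therefore not read as particular to the related genes. With quantile normalization 42.2% of called genes rose, against 57.6% as reported. Over all tested genes the median log2 difference was -0.14 there, against 0.02. In that fit CAGOLS2 was higher by 1.01 and FER3 by 0.64 with that shift not taken off. P5CS turned to -0.041 and FER2 to -0.0080 there, and when 1 library was left out P5CS ranged from -0.34 (without post B) to 0.51 (without post A). The cause was not tested. No paired analysis was possible because the column names do not carry the replicate numbers of the labels.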
